A study of Homo sapiens with 4 samples.

Results

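Thrombospondin 1 (THBS1) and 8 genes of the TGF-beta pathway were followed in SAS, a squamous carcinoma line of the human tongue, after knockdown of STAU1, which encodes a double-stranded RNA binding protein. The 9 genes were THBS1, TGFB1, TGFB2, INHBA, TGFBR1, TGFBR2, SMAD3, SMAD7 and TGFBI. They were found by matching their symbols to the Ensembl gene identifiers of a table of 67008 genes, and all 9 were among the 14303 genes that passed the filter on low counts. The 9 genes were selected with the change between these same libraries known. Their changes are therefore given as a description. Where a gene of the 9 is said to pass a threshold, this gives its place in the fit over all genes and is no independent test.

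RNA-sequencing libraries came from 2 samples with an shRNA to luciferase (shLuc, called Ctrl) and 2 with an shRNA to STAU1 (called shSTAU1). Both groups were virally infected, are labelled with the genotype WT, and were grown in the same serum-containing medium. A single shRNA name is given for the knockdown, and the labels do not say whether the 2 samples of a group were separate cultures, so p-values measure only the spread between these libraries. The cell line field of every sample names C3H 10T1/2, a mouse fibroblast line, although the organism is human, the cell type is given as an oral cancer line and the growth protocol names SAS.

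The totals ran from 32206655 to 36301574 counts per library. STAU1 itself fell from 250 ± 1.65 CPM (counts scaled to a common library total, SD, n = 2) in Ctrl to 41.6 ± 0.0780 CPM in shSTAU1, a log2 fold change of -2.59 (SE 0.13). All 10 squamous epithelial markers examined, such as KRT5 and TP63, had more than 3 counts in every library. Of 10 fibroblast markers 4 did, and COL3A1, DCN, LUM, POSTN and THY1 had 0 or 1 count in each library. Of 8 endothelial and immune markers 3 did, VWF with 110 to 457 counts, CDH5 with 149 to 230, and CD14 with 5 and 5 in Ctrl and 40 and 15 in shSTAU1. CD3E had 10 counts in shSTAU1 replicate 2 and 0 elsewhere, and PTPRC, CD68, PECAM1 and KDR had at most 2 counts. VWF, CDH5 and CD14 were tested and did not pass the threshold. The summed level of the squamous markers was 7150 to 7589 CPM in Ctrl and 8719 to 11371 CPM in shSTAU1, with KRT5 and SFN past the threshold as higher and PKP1 as lower. Whether the squamous markers' shift had a part in the values below was not tested. In such bulk samples, fewer cells of a type and less RNA per cell cannot be told apart.

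TGF-beta ligands are secreted as latent complexes, held in the matrix by latent TGF-beta binding proteins (LTBPs), and are released by integrins and by thrombospondin 1, an abundant secreted matrix glycoprotein. Active ligand binds TGFBR2, which phosphorylates TGFBR1, and TGFBR1 in turn phosphorylates SMAD2 and SMAD3, which enter the nucleus with SMAD4. SMAD7 is an induced inhibitor that blocks the receptor. Activins, built from the inhibin beta subunits, reach the same SMADs through their own receptors.

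THBS1, TGFB2 and INHBA had lower levels in both shSTAU1 libraries than in either Ctrl library, with log2 fold changes between -1.06 and -0.81. TGFBR1 and TGFB1 were higher in both shSTAU1 libraries, TGFBR2 and TGFBI were lower in both, and the libraries of SMAD3 and SMAD7 overlapped between the groups. Of the 9 genes, THBS1 alone passed the threshold over all genes (edgeR quasi-likelihood test, Benjamini-Hochberg adjusted p under 0.05), as lower. TGFB2 missed it narrowly, with an edgeR adjusted p of 0.0510. Over all 14303 genes, 2.6% passed, 1.48% as lower and 1.13% as higher. The groups did not overlap for 7 of the 9 genes, and for 56.6% of all tested genes. Since the 9 genes were chosen by this contrast, nothing is read from these shares. The median log2 fold change was -0.26 over the 9 genes, of which 3 were above 0, and 0.0059 over all tested genes. When 1 library was left out, the median over the 9 ran from -0.36 without shSTAU1 replicate 1 to -0.13 without shSTAU1 replicate 2.

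**Figure D1:**
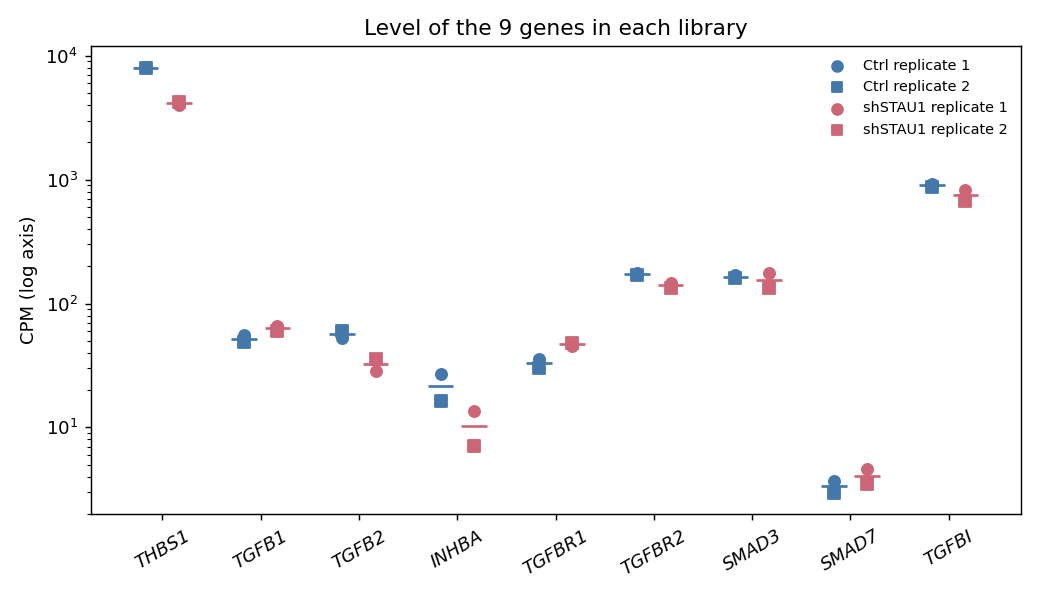
CPM (log axis) of the 9 genes in each of the 4 libraries; blue points are Ctrl, red points shSTAU1, circles replicate 1, squares replicate 2, and short lines the group means. THBS1 lies at 7901 to 8085 CPM in Ctrl and 4029 to 4236 CPM in shSTAU1, and SMAD7 lies lowest, at 2.96 to 4.62 CPM.

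THBS1 (ENSG00000137801, chr15:39581079-39599466, plus strand, GRCh38) had 271875 and 258676 counts in Ctrl and 140253 and 149697 in shSTAU1. Both shSTAU1 libraries were far below both Ctrl libraries, and the libraries of a group lay close together. On the CPM scale the level was 7993 ± 130.3 (SD, n = 2) in Ctrl and 4132 ± 147 in shSTAU1, which is 51.7% of Ctrl and a log2 fold change of -0.95 (SE 0.11). THBS1 took 0.803% to 0.824% of all counts in Ctrl and 0.399% to 0.412% in shSTAU1, and its rank among all genes by CPM moved from 5 to 16. THBS1 no longer passed the threshold when Ctrl replicate 1 or Ctrl replicate 2 was left out, although its log2 fold change was then -0.94 and -0.96. Without Ctrl replicate 1, 0 of 14978 genes passed in edgeR's test, STAU1 included, and 1502 had an unadjusted p under 0.05. Without the filter on low counts, when 24804 genes were tested, THBS1 did not pass either, and neither did any other gene of the pathway lists that is named below as past the threshold. On the opposite strand THBS1 shares 448 exon bases with FSIP1, which had between 14 and 44 counts per library.

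The ligand genes differed in sign. TGFB2, a TGF-beta ligand (ENSG00000092969, chr1:218346235-218444619, plus strand), had 1787 and 1963 counts in Ctrl and 999 and 1266 in shSTAU1. Its level was 56.5 ± 4.82 CPM in Ctrl and 32.3 ± 5.04 CPM in shSTAU1, a log2 fold change of -0.81 (SE 0.17). Both shSTAU1 libraries were below both Ctrl libraries.

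INHBA encodes the beta A subunit of activin A (ENSG00000122641, chr7:41667168-41705834, minus strand). It had 903 and 533 counts in Ctrl and 470 and 252 counts in shSTAU1. The higher shSTAU1 library was just below the lower Ctrl library, and replicate 2 was below replicate 1 in both groups. The level was 21.6 ± 7.48 CPM in Ctrl and 10.3 ± 4.50 CPM in shSTAU1, a log2 fold change of -1.06 with the largest SE of the 9 genes, 0.35. The log2 fold change of INHBA was -0.67 without Ctrl replicate 1 and -1.59 without shSTAU1 replicate 1, the ends of its range when each library was left out in turn.

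TGFB1 (ENSG00000105329, chr19:41301587-41353911, minus strand), the ligand that names the family, had 1878 and 1589 counts in Ctrl and 2309 and 2106 in shSTAU1. Its level was 52.2 ± 5.17 CPM in Ctrl and 63.0 ± 4.76 CPM in shSTAU1, a log2 fold change of 0.27 (SE 0.15), with both shSTAU1 libraries above both Ctrl libraries. TGFB1 shares 215 exon bases with HNRNPUL1 on the opposite strand. HNRNPUL1 had 4779 and 5015 counts in Ctrl and 6272 and 7044 in shSTAU1. The strand setting of the counting is not given in the sources used here, so reads of the shared bases may have gone to either gene. The ratio of TGFB1 to HNRNPUL1 counts was 0.393 and 0.317 in Ctrl and 0.368 and 0.299 in shSTAU1, and these groups overlapped.

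Within each library TGFB1 and TGFB2 had near equal counts in Ctrl, with a ratio of 1.05 and 0.809. In shSTAU1 the ratio of TGFB1 to TGFB2 was 2.31 and 1.66. A ratio within a library does not depend on the scaling of that library, and here the 2 groups did not overlap. TGFB1 was higher and TGFB2 lower in both shSTAU1 libraries, so their ratio had to separate the groups.

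**Figure D2:**
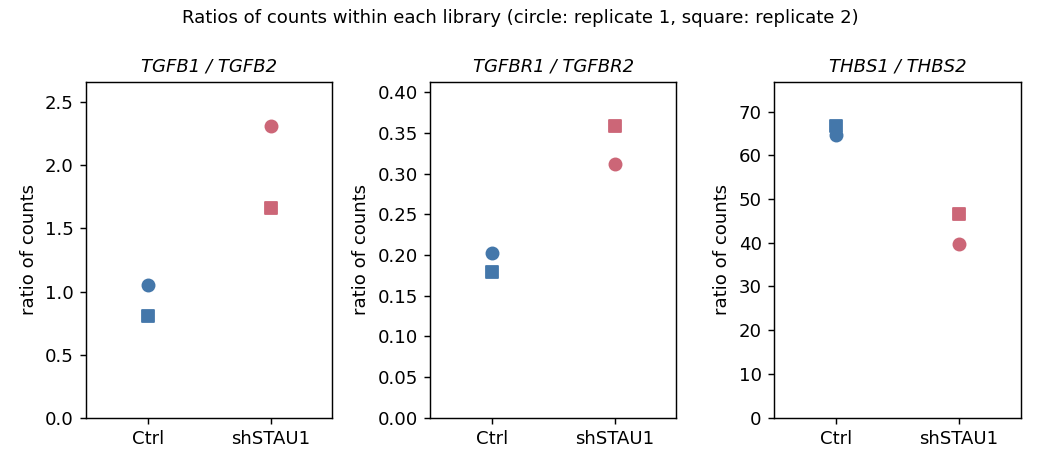
Ratios of counts within each library for TGFB1 over TGFB2, TGFBR1 over TGFBR2 and THBS1 over THBS2 (y axes, from 0), by group (x axis); circles are replicate 1 and squares replicate 2. The first 2 ratios are higher in both shSTAU1 libraries (1.66 to 2.31 against 0.809 to 1.05, and 0.312 to 0.358 against 0.179 to 0.202), and the THBS1 ratio is lower (39.7 to 46.6 against 64.7 to 66.7). TGFB1 and TGFBR1 were higher and TGFB2 and TGFBR2 lower in both shSTAU1 libraries, so the first 2 ratios had to separate the groups.

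The promoter windows of THBS1, TGFB2 and INHBA are printed because these 3 genes had the largest changes of the 9, all in the same direction. Each is the 250 bases before the RefSeq start on GRCh38.p14, 5′ to 3′ on the gene's strand, and capitals mark the letters of a SMAD motif (CAGAC), a TEAD motif (GGAATG) or an AP-1 motif (TGANTCA) on either strand. The windows are chr15:39580829-39581078 (plus strand) for THBS1, chr1:218345086-218345335 (plus strand) for TGFB2, which lies before the gene's start in GENCODE 29, and chr7:41703091-41703340 (minus strand) for INHBA, which lies inside the gene's GENCODE 29 span.
THBS1: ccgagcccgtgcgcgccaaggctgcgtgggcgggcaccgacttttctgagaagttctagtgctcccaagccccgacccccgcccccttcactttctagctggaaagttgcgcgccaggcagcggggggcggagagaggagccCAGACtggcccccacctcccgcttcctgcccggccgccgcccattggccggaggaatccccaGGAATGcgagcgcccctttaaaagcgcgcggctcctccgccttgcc
TGFB2: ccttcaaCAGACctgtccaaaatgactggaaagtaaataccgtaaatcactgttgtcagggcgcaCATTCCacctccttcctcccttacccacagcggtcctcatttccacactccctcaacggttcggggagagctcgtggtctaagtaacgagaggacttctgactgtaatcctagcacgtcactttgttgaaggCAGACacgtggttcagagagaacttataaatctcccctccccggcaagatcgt
INHBA: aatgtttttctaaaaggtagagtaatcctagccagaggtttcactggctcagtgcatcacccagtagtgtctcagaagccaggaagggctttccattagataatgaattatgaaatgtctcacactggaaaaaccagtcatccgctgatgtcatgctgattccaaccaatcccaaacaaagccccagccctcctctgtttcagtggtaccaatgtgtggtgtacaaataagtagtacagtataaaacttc

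The THBS1 window holds 1 SMAD match, which begins 108 bases before the start, and 1 TEAD match at 46 bases. The TGFB2 window holds SMAD matches at 243 and 53 bases and a TEAD match on the other strand at 185 bases. None of the capital matches overlap each other, and the INHBA window holds none of the 3 motifs. Of 27305 RefSeq promoter windows of this length, 37.8% hold the SMAD letters, 11.9% the TEAD letters and 6.60% the AP-1 letters. GC content was 69.6%, 50.4% and 42.8% for THBS1, TGFB2 and INHBA, against a median of 58.0%. Of the other 6 genes, TGFBR1 has 1 SMAD match and SMAD7 has 2, and none has a TEAD or AP-1 match. These matches describe letters and not bound sites.

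The receptor genes also differed in sign. TGFBR1 (ENSG00000106799, chr9:99104038-99154192, plus strand), the type I receptor kinase, had 1204 and 990 counts in Ctrl and 1593 and 1695 in shSTAU1. Its level was 33.0 ± 3.94 CPM in Ctrl and 46.9 ± 1.56 CPM in shSTAU1, a log2 fold change of 0.50 (SE 0.15), the largest positive value of the 9 genes.

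TGFBR2 (ENSG00000163513, chr3:30606502-30694142, plus strand), the type II receptor that binds the ligand, had 5946 and 5519 counts in Ctrl and 5104 and 4731 in shSTAU1. Its level was 173 ± 5.84 CPM in Ctrl and 140.2 ± 9.01 CPM in shSTAU1, a log2 fold change of -0.30 (SE 0.13). For each receptor the libraries of the groups were apart. The ratio of TGFBR1 to TGFBR2 counts was 0.202 and 0.179 in the Ctrl libraries and 0.312 and 0.358 in the shSTAU1 libraries. TGFBR2 thus had the larger count in all 4 libraries, by less in shSTAU1. TGFBR1 was higher and TGFBR2 lower in both shSTAU1 libraries, so their ratio also had to separate the groups.

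SMAD3, the transducer of the receptor signal (ENSG00000166949, chr15:67063763-67195195, plus strand), had 5711 and 5265 counts in Ctrl and 6160 and 4762 in shSTAU1. The shSTAU1 libraries lay on either side of the Ctrl libraries. Its level was 165 ± 6.38 CPM in Ctrl and 156 ± 29.8 CPM in shSTAU1, a log2 fold change of -0.09 (SE 0.16), which was 0.09 without shSTAU1 replicate 2 and 0.01 with a correction for length and GC content.

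SMAD7, the inhibitor (ENSG00000101665, chr18:48919853-48952052, minus strand), had the lowest counts of the 9 genes, 125 and 97 in Ctrl and 161 and 123 in shSTAU1. Its level was 3.34 ± 0.534 CPM in Ctrl and 4.05 ± 0.809 CPM in shSTAU1. The log2 fold change was 0.28 (SE 0.30), about the size of its error, and the groups overlapped.

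TGFBI, a secreted matrix protein named for its induction by TGF-beta (ENSG00000120708, chr5:136028895-136063818, plus strand), had 31153 and 28548 counts in Ctrl and 28799 and 23970 in shSTAU1. In CPM the shSTAU1 libraries, at 827 and 678, were below the Ctrl libraries, at 926 and 872. Its level was 899 ± 38.5 CPM in Ctrl and 753 ± 105 CPM in shSTAU1, a log2 fold change of -0.26 (SE 0.14).

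**Figure D3:**
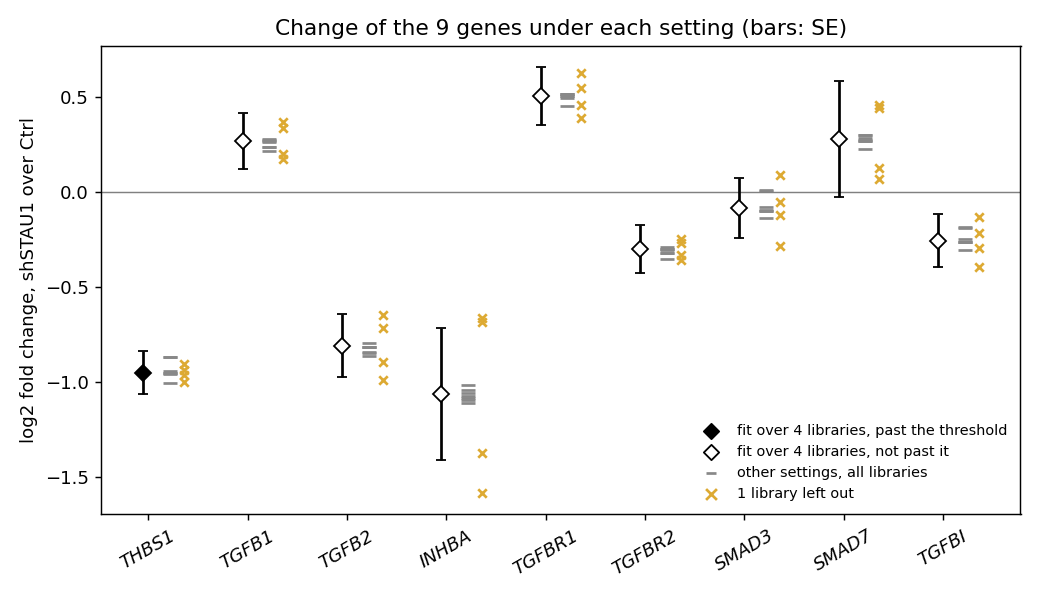
Log2 fold change of shSTAU1 over Ctrl (y axis) for the 9 genes; diamonds are the fit over 4 libraries with SE bars, filled where past the threshold, grey dashes are other settings with all libraries, and yellow crosses leave out 1 library. THBS1 lies between -1.004 and -0.868 in all of these, and INHBA spans -1.59 to -0.67.

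Per kilobase of the main transcript, the order of levels in Ctrl was THBS1 (1028 ± 16.8 CPM per kb), TGFBI (321 ± 13.7), TGFBR2 (37.4 ± 1.26), SMAD3 (26.5 ± 1.02), TGFB1 (18.8 ± 1.87), TGFB2 (11.4 ± 0.970), TGFBR1 (5.07 ± 0.604), INHBA (3.56 ± 1.23) and SMAD7 (0.754 ± 0.120). In shSTAU1 the order of TGFB2 and TGFBR1 was exchanged, at 6.49 ± 1.01 and 7.19 ± 0.239 CPM per kb, and their libraries overlapped. SMAD3 at 24.9 ± 4.78 and TGFB1 at 22.7 ± 1.72 CPM per kb also overlapped in shSTAU1. THBS1 was at 531 ± 18.8 and TGFBI at 268 ± 37.6 CPM per kb there, and THBS1 was again the highest of the 9. The libraries were made with an exome capture kit, so probes as well as transcript length bear on levels between genes.

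Among 7775 genes whose mean CPM reached 10, the 5 whose centred log2 CPM over the 4 libraries lay nearest to that of THBS1 were UACA (distance 0.0654), OSBPL3 (0.0721), ZNF624 (0.0824), SMARCA2 (0.0873) and GFPT2 (0.0950). UACA, the nearest, had 395 and 411 CPM in Ctrl and 203 and 211 CPM in shSTAU1. Over only 4 libraries in 2 groups, likeness of this kind is mostly likeness of the fold change.

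The words AAGAGAA and AGAGAAA in 3′ untranslated regions were looked up because they had been picked from the changes in these same libraries, so they support nothing here. THBS1, TGFBR1 and SMAD7 have 2 sites of either word each and INHBA has 4, while TGFB1, TGFB2, TGFBR2, SMAD3 and TGFBI have 0. A site is present in 64.3% of genes with a region of like length to that of THBS1. This share was 67.4% for INHBA, 69.6% for TGFBR1, 36.6% for SMAD7 and 67.9% for SMAD3. Of the genes with sites, THBS1 and INHBA were lower and TGFBR1 was higher, and nothing is read from this.

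On the list of genes for thrombospondins and for the storage and activation of latent TGF-beta, 15 of 18 were tested. Of these 3 passed the threshold, of which THBS1 and LTBP2 fell and ITGB8 rose. Without THBS1, 1 of 14 tested genes rose and 1 fell. Over all tested genes, 1.13% passed as higher and 1.48% as lower. The list too was chosen with earlier results of these data known, so nothing is read from these shares. The median log2 fold change of the whole list was -0.32, and -0.27 without THBS1. For the whole list it was -0.20 without Ctrl replicate 1, -0.53 without shSTAU1 replicate 1 and -0.13 without shSTAU1 replicate 2. LTBP2, a matrix protein of the LTBP family, had 6520 and 5584 counts in Ctrl and 2788 and 1855 in shSTAU1. Its level fell from 182 ± 16.5 to 66.3 ± 19.5 CPM, a log2 fold change of -1.46 (SE 0.21, edgeR adjusted p = 0.0328). LTBP1, LTBP3 and LTBP4, named after their values were seen, did not pass, at log2 fold changes of -0.63, -0.23 and -0.47. LTBP2 is listed here by its family, and whether it holds latent TGF-beta was not tested.

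ITGB8, the beta chain of an integrin that activates latent TGF-beta, had 608 and 753 counts in Ctrl and 1735 and 1447 in shSTAU1. It rose from 20.5 ± 3.48 to 45.4 ± 6.29 CPM, a log2 fold change of 1.14 (SE 0.19, edgeR adjusted p = 0.0358). Both genes lost their call without Ctrl replicate 1, with a log2 fold change of -1.37 for LTBP2 and 0.98 for ITGB8. ITGB8 also lost it without Ctrl replicate 2, at 1.33. The other integrin chains on the list, ITGB6 and ITGAV, were named after their values were seen. Neither passed the threshold, at log2 fold changes of -0.97 and -0.32. THBS2, the closest relative of THBS1 in structure, had 4201 and 3880 counts in Ctrl and 3533 and 3214 in shSTAU1 and did not pass the threshold, with a log2 fold change of -0.34 (SE 0.13). The ratio of THBS1 to THBS2 counts was 64.7 and 66.7 in Ctrl and 39.7 and 46.6 in shSTAU1. THBS2 was named after its values were seen.

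The list of TGF-beta response genes had the most calls. The list does not record in which direction TGF-beta moves each gene, so its counts and median do not measure pathway activity. Of 32 such genes 30 were tested, and 5 fell, 0 rose and 25 did not pass, with a median of -0.21. This median was -0.03 without Ctrl replicate 1, -0.33 without Ctrl replicate 2, -0.38 without shSTAU1 replicate 1 and -0.11 without shSTAU1 replicate 2. Without the 9 chosen genes, 4 of 25 fell, beside the 1.48% of all tested genes that passed as lower. The median of these 25 was -0.16. The list too was chosen with earlier results of these data known, so nothing is read from this share. No test of the list was made, and THBS1 and LTBP2 are counted both here and above. LTBP2 is among the 4 that fell, with COL4A1 and COL1A1, which encode collagen chains.

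COL4A1, a basement membrane collagen chain, had 20115 and 20984 counts in Ctrl and 9412 and 10275 in shSTAU1. It fell from 620 ± 30.2 to 281 ± 14.4 CPM, a log2 fold change of -1.14 (SE 0.12, edgeR adjusted p = 0.0140). Both shSTAU1 libraries of COL4A1 were far below both Ctrl libraries.

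COL1A1, a fibrillar collagen chain, had 527 and 663 counts in Ctrl and 273 and 221 in shSTAU1. It fell from 18.0 ± 3.24 to 7.05 ± 1.12 CPM, a log2 fold change of -1.35 (SE 0.23, edgeR adjusted p = 0.0360). It is also on the fibroblast marker list, whose summed level was 18.5 and 23.7 CPM in Ctrl and 11.6 and 10.8 CPM in shSTAU1. COL1A1 makes up most of that sum, and the other 9 markers summed to 2.82 and 3.42 CPM in Ctrl and 3.79 and 4.58 CPM in shSTAU1. Of these, COL1A2 had 40 and 55 counts in Ctrl and 75 and 128 in shSTAU1 and did not pass the threshold. Without Ctrl replicate 1 both collagen genes lost their call, at log2 fold changes of -1.20 for COL4A1 and -1.53 for COL1A1. Without Ctrl replicate 2 both lost it too, at -1.09 and -1.15.

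CCN2, which encodes a matricellular protein and is widely used as a SMAD3 response gene, did not pass the threshold. It had 446 and 427 counts in Ctrl and 436 and 616 in shSTAU1, with a log2 fold change of 0.19 (SE 0.22) and overlapping groups. The value was -0.08 without shSTAU1 replicate 2.

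**Figure D4:**
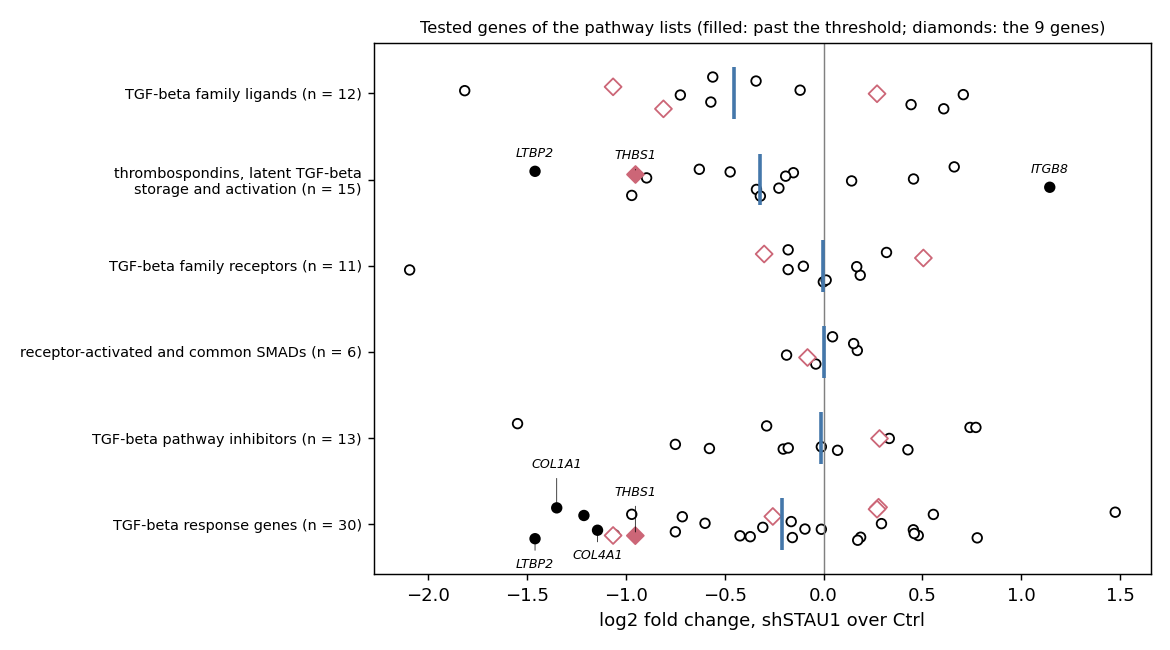
Log2 fold change of shSTAU1 over Ctrl (x axis) for the tested genes of the 6 pathway lists (rows, with the number tested); filled symbols passed the threshold, diamonds are the 9 genes, and blue lines are list medians. The calls lie in the storage and activation list, with 3, and in the response list, with 5, and names stand beside the called genes given in the text.

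In the other 4 lists 0 genes passed the threshold in edgeR's test or in limma-voom. At an unadjusted p under 0.05 there were 4 ligands, 3 receptors, 0 SMADs and 2 inhibitors, beside 24.5% of all 14303 tested genes. DESeq2 called 4, 1, 0 and 1, beside 11.7% of the 12301 genes to which it gave an adjusted p. TGFB2 and INHBA, of the 9 chosen genes, are in both counts of 4 ligands. TGFBR1 and TGFBR2 are in the count of 3 receptors. Nothing is read from these counts. Of the family ligands 12 of 18 were tested, with a median log2 fold change of -0.45, and the most abundant were TGFB2 and TGFB1. Without the chosen genes the ligand median was -0.34. Most of the other tested ligands were low, such as BMP4 with 1.24 CPM in Ctrl, while BMP7 had 13.8. Both were named after their values were seen. The ligand median over all 12 was -0.10 without Ctrl replicate 1 and -0.29 without shSTAU1 replicate 2. Of the receptors 11 of 14 were tested, with a median of -0.0010. BMPR1A, a type I receptor for bone morphogenetic proteins and with TGFBR2 the most abundant of them, had 3316 and 2933 counts in Ctrl and 3504 and 3155 in shSTAU1, a log2 fold change of 0.01 (SE 0.14). All 6 receptor-activated and common SMADs were tested, with a median of 0.0033. The receptor median ran from -0.06 to 0.03 and the SMAD median from -0.12 to 0.05 when each library was left out in turn. SMAD2, the partner of SMAD3, had 5352 and 5706 counts in Ctrl and 5694 and 6381 in shSTAU1, a log2 fold change of 0.05 (SE 0.13). The direction of BMPR1A and of SMAD2 turned with library size scaling.

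Of the pathway inhibitors 13 of 16 were tested, with a median of -0.01, which was 0.08 without Ctrl replicate 1, 0.09 without shSTAU1 replicate 2, and -0.28 without either other library. FST, which encodes the activin-binding protein follistatin, had 2945 and 2502 counts in Ctrl and 1982 and 1873 in shSTAU1. Its groups did not overlap, and its log2 fold change was -0.58 (SE 0.14, edgeR adjusted p = 0.0685). SMURF2, a ubiquitin ligase that acts with SMAD7, had 5470 and 3867 counts in Ctrl and 4377 and 4172 in shSTAU1, a log2 fold change of -0.20 (SE 0.17). In CPM, 1 shSTAU1 library of SMURF2 lay inside the Ctrl range and the other at its lower end.

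Of 7 noncoding antisense or overlapping transcripts listed for the 9 genes, 5 were in the table and 0 had enough counts to be tested. The capture probes are for coding transcripts, so these low counts say little of the levels. Protein-coding genes that overlap the 9, such as HNRNPUL1 and FSIP1, were not on this list. Over the 6 lists with each gene counted once, 79 of 96 genes were tested, 1 rose and 5 fell, and the median log2 fold change was -0.16. Without the 9 chosen genes, 70 genes remained, of which 1 rose and 4 fell. Over all tested genes, 1.13% passed as higher and 1.48% as lower. The 6 lists too were chosen with earlier results of these data known, so nothing is read from these shares.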

How the data were processed

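RNA was sequenced from 4 samples with the TruSeq RNA Exome kit, which captures coding transcripts with probes. The authors deposited whole-number read counts per gene without normalization. The submitters' processing notes name Partek and the hg38 build. Aligner, counter and strand setting are not given in the sources used here. Of 67008 gene entries, 58516 identifiers were in GENCODE 29, the 45 second copies of pseudoautosomal genes held 0 counts, and 0 sample columns were left unmapped.

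Counts were analysed in R 4.3.3. Genes were filtered with filterByExpr of edgeR 4.0.16, which left 14303 genes with 99.9% of the counts, and libraries were scaled by TMM. shSTAU1 was tested against Ctrl by quasi-likelihood, with Benjamini-Hochberg adjustment over all genes and a threshold of 0.05, since the paper states no test here. The SE of a log2 fold change was derived from that test, as its absolute value divided by the square root of the F statistic. Same-group libraries differed beyond sampling noise, with a chi-square of 23.4 per degree of freedom in Ctrl and 56.4 in shSTAU1, and counted as separate replicates. Alternatives were DESeq2 1.42.0, limma-voom (limma 3.58.1), library size scaling, no filter, a replicate block, a length and GC correction, an adjusted p under 0.10, a fold of 1.5 with an unadjusted p under 0.05, and leaving out each library.

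The members and lists were chosen with earlier results of these data known. Genes named are the 9 members, STAU1, CCN2, in each list up to 5 genes with the largest change past the threshold or else the 2 most abundant, and the 5 genes nearest to THBS1 by Euclidean distance. The rule covers 2 more genes that are not reported here. Other genes are named as chosen after their values were seen, beside markers and overlapping genes. Gene positions, main transcripts and 3′ untranslated regions came from GENCODE 29 (GRCh38). Promoter windows came from RefSeq (GRCh38.p14) for 9 of 9 members. Of these, 4 have more than 1 window, and the first listed was used. Genes were matched to these tables by symbol and identifier in Python 3.11.15.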

Additional observations from a re-analysis of the deposited data

How the results depend on the processing

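The fit of 4 libraries called 372 genes in all, 1 of the 9 members, 3 of the storage and activation genes, 5 of the response genes and 0 of the ligands, receptors, SMADs and inhibitors. DESeq2 called 1437 in all (800 higher and 637 lower, against 161 and 211), with 3 members, 4 ligands, 1 receptor and 1 inhibitor. An adjusted p under 0.10 gave 1585 in all, with 2 members, 3 ligands, 1 receptor and 1 inhibitor. A fold of 1.5 with an unadjusted p under 0.05 gave 2098 in all, with 3 members, 4 ligands, 1 receptor, 1 inhibitor and 9 response genes. Library size scaling called 2 members and 1 ligand, and 404 genes in all (132 higher and 272 lower). Without a filter 24804 genes were tested and 11 passed, with 0 members, 0 storage and activation genes and 0 response genes. Limma-voom called 363 and the length and GC correction 273 genes.

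The replicate block called 4087 genes in all, with 5 members, 4 ligands, 8 storage and activation genes, 3 receptors, 3 inhibitors and 17 response genes. With the length and GC correction beside the replicate block these were 3312, 5, 4, 6, 3, 3 and 15, and 1 SMAD. The 5 members under either block were THBS1, TGFB2, INHBA, TGFBR1 and TGFBR2. The deviations of same-numbered libraries correlated at 0.27 over 14303 genes. With 2 pairs this does not settle whether the libraries were paired, and the labels do not say that a number marks a shared culture or day, so the block was kept as an alternative.

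Leaving out 1 library leaves a lone library in its group, which is then assumed to vary like the other group. The counts then ran from 0 to 2780 in all, 0 to 5 members, 0 to 3 ligands, 0 to 10 storage and activation genes, 0 to 1 receptors, 0 to 1 inhibitors and 0 to 15 response genes. Without Ctrl replicate 1 the count was 0 and without Ctrl replicate 2 it was 64, against 2780 and 2203 without shSTAU1 replicates 1 and 2. The cause was not tested.

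THBS1 passed in 9 of 12 fits, TGFB2 in 6, INHBA in 5, TGFBR1 in 3, TGFBR2 in 2 and TGFBI in 1, and TGFB1, SMAD3 and SMAD7 in 0. No member but SMAD3 changed sign in these fits. SMAD3 turned to 0.0117 with the length and GC correction, to 0.0044 with that correction and the replicate block, and ran from -0.285 to 0.0875 without 1 library. BMPR1A was -0.0385 and SMAD2 -0.0073 with library size scaling. Without 1 library, BMPR1A ran from -0.0656 to 0.0866, SMAD2 from -0.0381 to 0.125, CCN2 from -0.0812 to 0.417 and SMURF2 from -0.412 to 0.0411. SMAD7 had the fewest reads of the members, 97 to 161 counts per library.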

Other observations

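INHBB, ACVR1C and ID2 were among the list genes farthest from 0 that did not pass the threshold, and they were chosen after their values were seen. INHBB, which encodes the beta B subunit of activin B, had 89 and 85 counts in Ctrl and 35 and 17 in shSTAU1, a log2 fold change of -1.81 (SE 0.46, edgeR adjusted p = 0.0737). As for INHBA, the groups did not overlap. ACVR1C, which encodes a type I receptor of activin and related ligands, had 75 and 47 counts in Ctrl and 10 and 20 in shSTAU1, a log2 fold change of -2.09 (SE 0.54, edgeR adjusted p = 0.0745). ID2, a response gene that encodes an inhibitor of helix-loop-helix transcription factors, had 48 and 22 counts in Ctrl and 130 and 75 in shSTAU1, a log2 fold change of 1.48 (SE 0.49, edgeR adjusted p = 0.127).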
